A study of Mus musculus with 6 samples.

Results

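The smooth muscle contractile genes are 10 genes chosen by name: Acta2, Actg2, Myh11, Tagln, Cnn1, Des, Smtn, Mylk, Myl9 and Lmod1. Their probes were taken by the symbol in the deposited bead array table, which gave 14 probes of 9 genes among 25697 probes of 18120 symbols. No probe carried the symbol Myl9, the gene of the regulatory light chain of smooth muscle myosin, and it is not analysed here. Of the 14 probes, 13 were above background on at least 3 of 6 arrays, so that 8 members stood among 10832 genes tested, and the Cnn1 probe did not pass. The RNA came from mouse tracheas at stage E18.5. The mutant pools are labelled Sox9-/-, with Sox9 lost from the mesenchyme and no cartilage rings, and the control pools are labelled Sox9+/+, both on a C57BL/6 background. There were 3 mutant pools and 3 control pools of 3 tracheas each, or 9 tracheas per group, gathered from 7 pregnant females and pooled at random. The driver that removed Sox9 is not given in the sources used here.

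Smooth muscle of the trachea lies on its dorsal side as the trachealis, and further smooth muscle surrounds its blood vessels. Its cells shorten when calcium and calmodulin activate a kinase that phosphorylates the light chain of myosin, and the myosin filaments then pull on actin filaments that are anchored to dense bodies and to the cell membrane. Many of the genes that encode this machinery are known targets of serum response factor, which binds a DNA element called the CArG box, and of its partner myocardin.

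Each array gave 14468 to 14726 detected probes, and its median intensity before normalization lay at 205 to 211 for mutant pools and 183 to 198 for control pools. The 6 arrays shared 1 slide, where control pools took the first positions, and an effect of position cannot be told apart from that of genotype. The identity of the tissue was checked on marker genes: all 11 tracheal epithelium markers on the array were detected, and the cartilage collagen gene Col2a1 averaged 5.34 ± 0.37 in the mutant pools and 11.70 ± 0.02 in the control pools (normalized log2 intensity, SD, n = 3 each). Sox9 itself read 5.63, 5.28 and 5.42 in the pools labelled mutant, against 4.69, 4.52 and 4.52 in the pools labelled control, and was above background on all 3 mutant arrays and on 0 of 3 control arrays. This probe goes against the label and does not check it, so that every direction below rests on the labels, under which cartilage genes are lower in the mutant pools. In bulk RNA, fewer smooth muscle cells and less RNA per cell cannot be told apart. Embryos were mixed before extraction, so that the spread behind each p-value is one between mixtures.

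Of the 8 members tested, 2 fell, Actg2 and Tagln, and none rose, where 3.37% of all genes fell and 2.16% rose, 5.53% in either direction (limma, adjusted p below 0.05 over all genes). All 8 changes were below 0, as were those of 48.9% of all genes. The median change of the members was -0.64 on the log2 scale, mutant minus control, beside 0.01 over all genes tested. Single changes ran from -0.86 in Actg2 to -0.17 in Myh11. The groups overlapped in 5 members. In the other 3, Actg2, Tagln and Smtn, every mutant pool lay below every control pool, as in 16.1% of all genes, while the groups were apart in either direction in 31.4%.

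**Figure D1:**
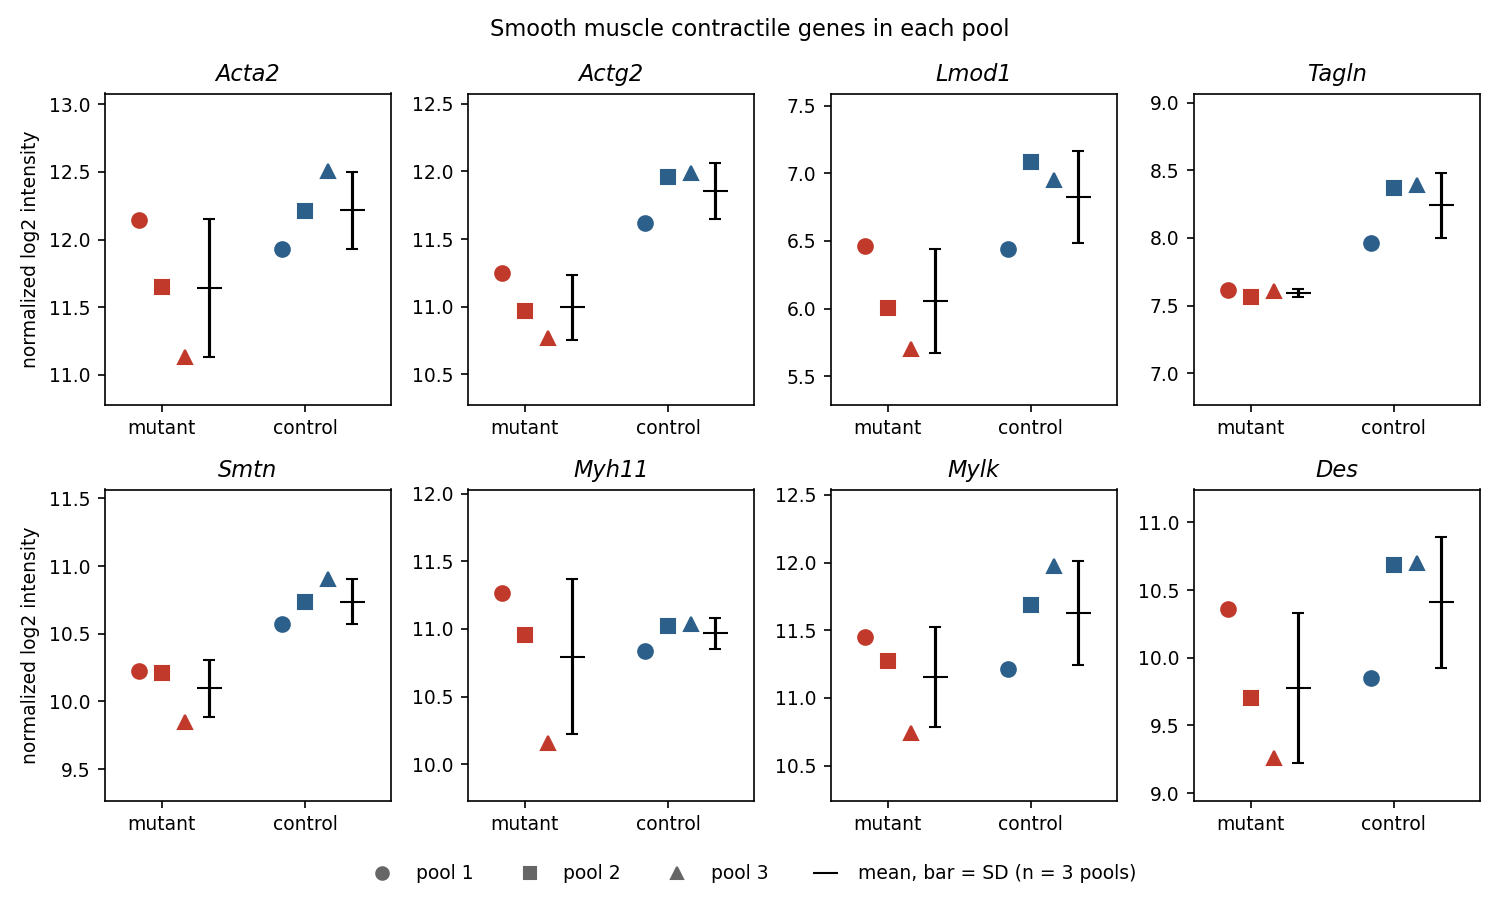
Normalized log2 intensity of 8 contractile genes in 3 mutant pools and 3 control pools, 1 panel per gene. Symbols mark the pools and bars the mean with its SD, and the vertical axes cover equally many log2 units in every panel, around different levels. The groups are apart in Actg2, Tagln and Smtn and overlap in the other 5 genes.

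The thin filament genes were taken first. Acta2 encodes the alpha actin of smooth muscle, which is also made by myofibroblasts and by vessel walls, and Actg2 encodes the gamma actin of enteric and other visceral smooth muscle. Actg2 read 11.25, 10.97 and 10.77 in mutant pools 1 to 3, against 11.62, 11.96 and 11.99 in control pools 1 to 3. It was 1.82-fold lower in the mutant pools, a fall of 45.0% (log2 change -0.86, SE 0.16, 95% confidence interval -1.24 to -0.48, limma adjusted p = 0.0337). The raw intensities of its probe also stood apart, with 2027 to 2816 in the mutant pools and 2921 to 4212 in the control pools.

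Acta2 was read by 3 probes. Its brightest probe read 12.15, 11.65 and 11.13 in the mutant pools, against 11.93, 12.21 and 12.51 in the control pools. Mutant pool 1 was higher than control pool 1, so that the groups overlapped, and the change of -0.57 did not pass (SE 0.27, 95% confidence interval -1.21 to 0.06, adjusted p = 0.239). The other probes gave -0.59 (SE 0.22) and -0.52 (SE 0.25), with adjusted p = 0.173 and 0.256 over all probes. The 3 probes thus had changes of much the same size and none passed. A further probe, listed under 0610041G09Rik, which is now a synonym of Acta2, was not a member by the symbol rule. It read 14.14, 14.00 and 13.63 in the mutant pools, against 14.05, 14.43 and 14.53 in the control pools, a change of -0.41 that did not pass (SE 0.18, adjusted p = 0.224).

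Lmod1 encodes leiomodin, which starts new actin filaments in smooth muscle. Its signal was dim, with a raw intensity of 206 to 247 in the mutant pools and 209 to 265 in the control pools. After background correction it read 6.46, 6.00 and 5.70 in the mutant pools, against 6.44, 7.08 and 6.95 in the control pools. Mutant pool 1 and control pool 1 were level and the other mutant pools lay below all control pools. The change of -0.77 was larger than that of Tagln, but the spread between pools was larger too, and it did not pass (SE 0.24, adjusted p = 0.110). Without background correction the change of Lmod1 was -0.29.

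RefSeq promoter windows of build GRCm38.p6, 250 bases before to 50 after the start of a gene, were matched for 7 of the 10 members, Acta2, Cnn1, Des, Smtn, Mylk, Myl9 and Lmod1. They were searched for the CArG box, a run of A and T bases between CC and GG that reads the same on both strands. No window was matched for Actg2, Tagln and Myh11, so that neither gene that fell was searched. An exact CArG box stood in 1 of these 7, that of Myl9, which has no measured probe, where 1.63% of 32851 windows hold one. With up to 1 mismatch, 3 of 7 held a match, those of Acta2, Myl9 and Lmod1, where 21.1% of all windows do. The windows of the measured genes Acta2 and Lmod1 are shown on the strand of the gene, 5′ to 3′, with the matches of up to 1 mismatch in capitals. They are chr19:34255324-34255623 on the minus strand for Acta2 and chr1:135324563-135324862 on the plus strand for Lmod1.
Acta2: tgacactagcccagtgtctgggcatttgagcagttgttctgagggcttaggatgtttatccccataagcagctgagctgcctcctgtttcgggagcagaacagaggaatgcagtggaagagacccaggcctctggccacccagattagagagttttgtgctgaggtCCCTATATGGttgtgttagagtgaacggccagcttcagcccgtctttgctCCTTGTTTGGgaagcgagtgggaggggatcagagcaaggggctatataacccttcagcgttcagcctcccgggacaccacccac
Lmod1: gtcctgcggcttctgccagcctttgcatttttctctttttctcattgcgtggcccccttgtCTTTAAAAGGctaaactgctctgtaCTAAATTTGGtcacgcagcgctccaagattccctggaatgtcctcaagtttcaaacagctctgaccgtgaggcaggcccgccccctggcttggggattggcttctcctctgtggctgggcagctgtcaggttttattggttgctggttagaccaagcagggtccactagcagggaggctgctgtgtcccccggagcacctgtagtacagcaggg
In Acta2 the matches begin 84 and 34 bases before the start, and in Lmod1 189 and 164 bases before it. These letters describe the windows and show no binding.

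Tagln, Cnn1 and Smtn encode proteins that lie along the actin filaments. Tagln, the gene of transgelin or SM22, an early and abundant marker of smooth muscle, read 7.61, 7.56 and 7.61 in the mutant pools, against 7.96, 8.37 and 8.39 in the control pools. The mutant pools lay close together (SD 0.03, n = 3), while control pool 1 stood below the other control pools. Tagln was 1.57-fold lower in the mutant pools (log2 change -0.65, SE 0.13, adjusted p = 0.0422). The raw intensities of the probe were 368, 346 and 362 in the mutant pools and 354, 420 and 469 in the control pools. The raw groups overlapped, and the normalized ones did not. With normalization but no background correction the change of Tagln was -0.41 (adjusted p = 0.0251). Without correction and normalization it was -0.20 (adjusted p = 0.151), when the median of all genes stood at 0.19.

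Smtn encodes smoothelin, a marker of differentiated, contractile smooth muscle. Its brightest probe read 10.22, 10.21 and 9.85 in the mutant pools, against 10.57, 10.73 and 10.91 in the control pools. All mutant pools lay below all control pools, and the change of -0.64 just missed the threshold (SE 0.14, adjusted p = 0.0514). The second probe changed by -0.71 (SE 0.14) and passed in the fit of single probes (adjusted p = 0.0389), in which 2.75% of all probes fell and 4.41% changed in either direction. The remaining, dim probe exceeded background on 0 of 3 mutant arrays and 3 of 3 control arrays. It passed the filter through the control pools alone and so gives no support of its own to a difference. Its bound was at least 1.42-fold lower in the mutant pools, a value that carries no test. The raw intensities of this dim probe overlapped, with 177 to 189 in the mutant pools and 173 to 200 in the control pools.

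Cnn1 encodes calponin, an actin-binding protein that slows the cycling of myosin. The signal exceeded background in 1 of 3 mutant pools and in 0 of 3 control pools. The raw intensity was 191, 162 and 172 in the mutant pools and 150, 152 and 163 in the control pools, and no change can be drawn from values at the background.

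Among the motor genes, Myh11, the heavy chain of smooth muscle myosin and a marker largely restricted to this cell type, read 11.27, 10.96 and 10.16 in the mutant pools, against 10.84, 11.02 and 11.04 in the control pools. Mutant pool 1 was the highest of all 6 pools and mutant pool 3 the lowest. The change was -0.17 (SE 0.27, 95% confidence interval -0.81 to 0.46, adjusted p = 0.735), an interval that still allows a fall as large as that of Tagln. Without mutant pool 3 it was 0.15. Mean raw intensity was 2165 ± 748 in the mutant pools and 2002 ± 250 in the control pools (SD, n = 3 each).

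Mylk encodes the kinase that phosphorylates the myosin light chain. Its brighter probe read 11.45, 11.27 and 10.74 in the mutant pools, against 11.22, 11.69 and 11.98 in the control pools, a change of -0.47 that did not pass (SE 0.25, adjusted p = 0.286). The second probe had a change of -0.55 (SE 0.29, adjusted p = 0.314 over all probes). Control pool 1 lay below mutant pools 1 and 2, so the groups overlapped.

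Des encodes desmin, the intermediate filament protein of smooth, skeletal and heart muscle alike. It read 10.36, 9.71 and 9.26 in the mutant pools, against 9.85, 10.68 and 10.70 in the control pools, and the change of -0.64 did not pass (SE 0.33, adjusted p = 0.289). Control pool 1 lay below mutant pool 1 here as well, and the spread within the groups exceeded that of 98.2% of all genes tested.

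**Figure D2:**
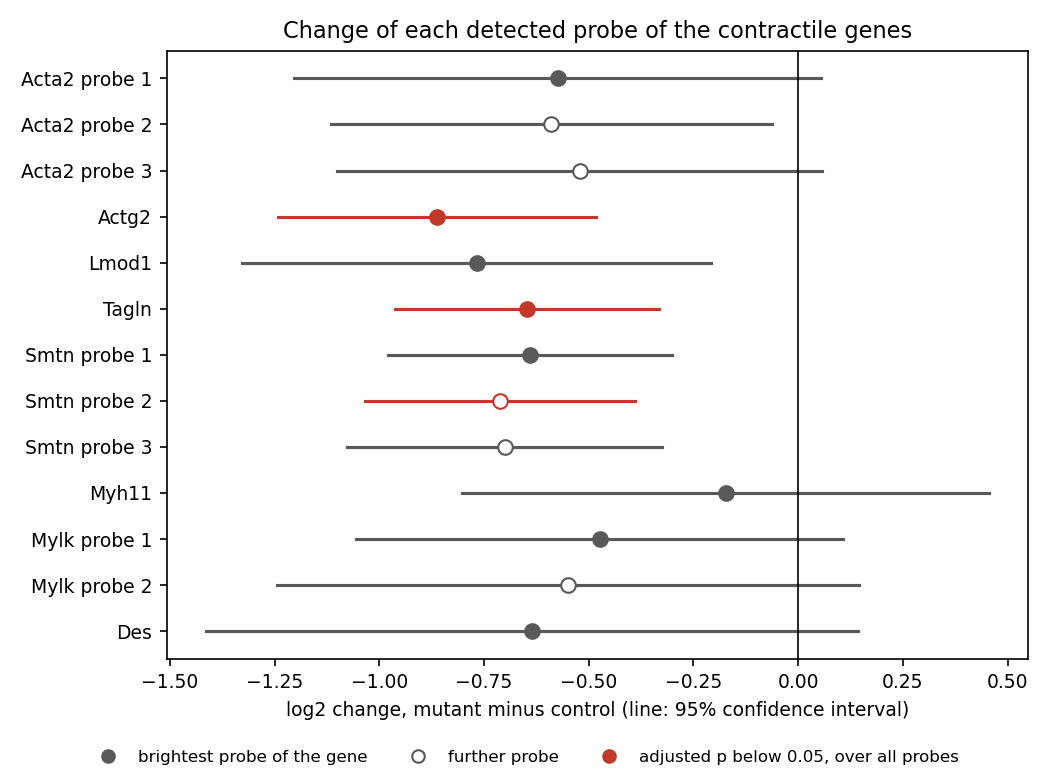
Log2 change, mutant minus control, of the 13 probes of the contractile genes that passed the filter, with its 95% confidence interval from the fit of single probes. Filled points are the brightest probe of a gene and open points its further probes. All 13 points lie below 0, and the 3 in red, of Actg2, Tagln and Smtn probe 2, had an adjusted p below 0.05. Smtn probe 3 passed the filter through the control arrays alone, so that its side of 0 gives no support.

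The standard error over the beads of a probe was 2.17% to 5.70% of its intensity on a single array over the 14 probes, and each probe was read from 21 to 62 beads. This error covers the reading of 1 array and not the differences between pools. For Acta2 the raw intensities of the brightest probe ran from 2535 to 5040 in the mutant pools and from 3610 to 5936 in the control pools.

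The members ordered the pools much alike. Control pool 1 was the lowest control pool in 8 of 8 members, as in 36.4% of all genes, and mutant pool 1 was the highest mutant pool in 8 of 8, as in 34.4%. Mutant pool 3 was the lowest mutant pool in 7 of 8 members, all but Tagln, and in 35.6% of all genes. The mean of the members, each centred on its own mean, stood at 0.03, -0.27 and -0.66 in mutant pools 1 to 3, against -0.01, 0.41 and 0.50 in control pools 1 to 3. Mutant pool 1 and control pool 1 were therefore level, and 5 of 8 members were higher in mutant pool 1 than in control pool 1, as were 49.7% of all genes. These counts share the same 6 arrays and are a description only. The SD between pools of a group had a median of 0.37 over the members, beside 0.16 over all genes, and 8 of 8 members lay above that median.

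**Figure D3:**
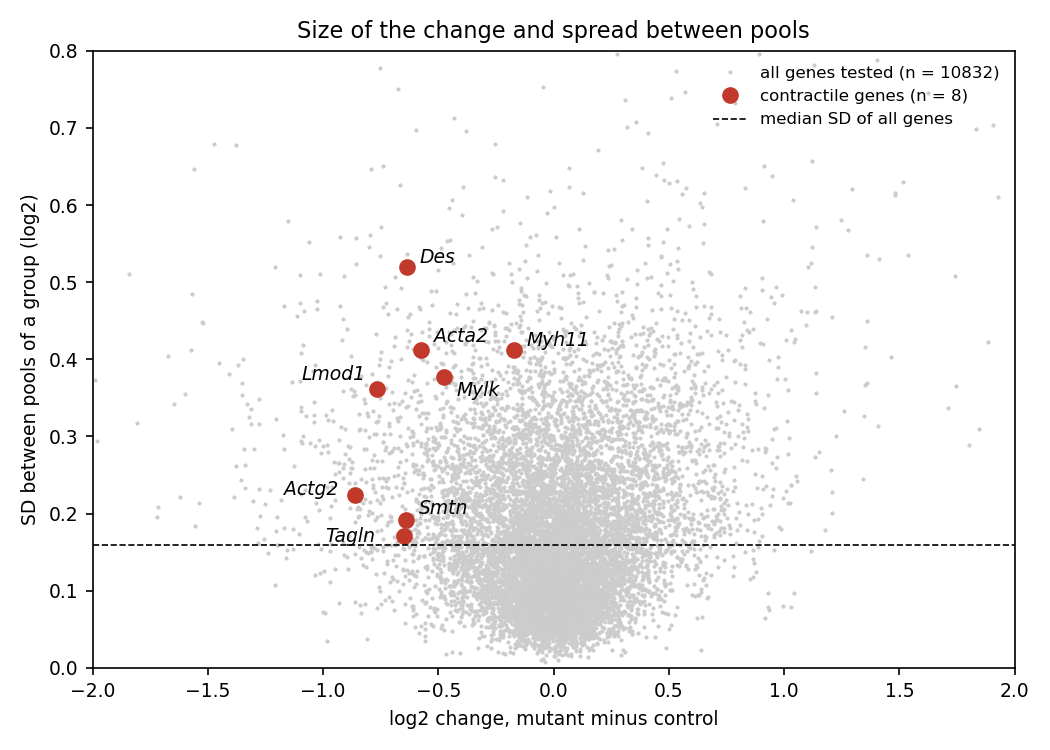
Standard deviation between the pools of a group (log2, vertical) against the log2 change, mutant minus control (horizontal), of 10832 genes in grey and 8 contractile genes in red. The dashed line is the median of all genes, 0.16, and all 8 members lie above it. Of the genes tested, 85 fall outside the axes.

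The 6 genes whose centred values over the 6 pools lay closest to the mean of the members were Zfp354a, Dner, Evc, Mmp17, Cdo1 and Robo1. Their root mean square difference from that mean was 0.06 to 0.10 on the log2 scale, and that of the members themselves was 0.11 (Mylk) to 0.27 (Myh11). The 6 were picked for the smallest difference among all genes tested outside the members, so that their lower values follow from the choice. None of the 6 passed the test. The closest, Zfp354a, a zinc finger protein gene, had a change of -0.52 (SE 0.20, adjusted p = 0.174), and Robo1, a receptor for Slit proteins, one of -0.61 (SE 0.19, adjusted p = 0.107).

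The wider smooth muscle machinery was read in 4 lists. Of 102 such genes, 74 were tested, 8 fell and 2 rose, and the median change was -0.09. Over all genes 3.37% fell and 2.16% rose, the shares to set beside this count and those of every list below. In the list of filament and attachment proteins, 3 of 25 tested genes fell and none rose (median -0.16). They were the fibronectin receptor subunit gene Itga5 (-0.77, SE 0.13, adjusted p = 0.0300), Tgfb1i1, which encodes the focal adhesion protein Hic-5 (-0.65, SE 0.12, adjusted p = 0.0360), and Pdlim7, a LIM protein that binds the actin cytoskeleton (-0.62, SE 0.13, adjusted p = 0.0492). The tropomyosin genes Tpm2 and Tpm1, named after their values were seen, had changes of -0.81 (SE 0.22) and -0.43 (SE 0.11) with the mutant pools below the control pools in both, and missed the threshold (adjusted p = 0.0804 and 0.0807).

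Among 12 genes that set the phosphorylation of the myosin light chain, 1 fell, the cGMP-dependent protein kinase gene Prkg1 (-0.61, SE 0.13, adjusted p = 0.0461), which relaxes smooth muscle, and none rose (median 0.02). Among 23 genes of receptors, calcium and cyclic nucleotides, 1 fell and 2 rose (median 0.04). The angiotensin II receptor gene Agtr1a read 8.58, 8.38 and 7.91 in the mutant pools, against 9.58, 9.96 and 10.26 in the control pools, a change of -1.65 (SE 0.23, adjusted p = 0.0175) and the largest fall of the 4 lists. Tacr1, the receptor of substance P, rose by 0.63 (SE 0.14, adjusted p = 0.0466), and Rgs4, which damps signals of G protein-coupled receptors, rose by 0.50 (SE 0.10, adjusted p = 0.0404).

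Of 14 transcriptional regulators, 3 fell and none rose (median -0.21). The homeobox gene Prrx1 changed by -0.95 (SE 0.11, adjusted p = 0.0113), Nfatc4, a calcium-dependent factor, by -0.59 (SE 0.11, adjusted p = 0.0336), and Klf4, known to repress contractile genes in vascular smooth muscle, by -0.56 (SE 0.12, adjusted p = 0.0461). The regulators of the CArG box, named after their values were seen, did not pass: Srf had a change of -0.13 (SE 0.10, adjusted p = 0.481) and Myocd, the gene of myocardin, one of -0.14 (SE 0.28, unadjusted p = 0.640).

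Relatives of the members that are found outside muscle were read beside them. Of 14 such genes tested, 2 fell and none rose (median -0.20). Cnn2, a calponin of many cell types, changed by -0.61 (SE 0.11, adjusted p = 0.0312), and Vim, the intermediate filament gene of mesenchymal cells, by -0.71 (SE 0.10, adjusted p = 0.0201).

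Markers of other cell types were read as well. Of 12 fibroblast markers 5 fell and none rose (median -0.57), among them Twist1, Thy1, Twist2 and Fbn1 (log2 changes of -1.28, -1.25, -0.71 and -0.60, adjusted p of 0.0126 to 0.0467). The fibroblast list stood at -0.13, -0.29 and -0.43 in the mutant pools, against 0.25, 0.32 and 0.28 in the control pools, and its summed raw intensity was 49116 to 59345 in the mutant pools and 58216 to 59701 in the control pools. Of 9 pericyte and vascular wall markers 1 fell, Higd1b (-0.73, SE 0.11, adjusted p = 0.0236), and none rose (median -0.22, summed raw intensity 3751 to 4348 in the mutant pools and 3538 to 3739 in the control pools). Summed raw intensities, here and below, are not normalized, and bright genes weigh most in them. On raw log2 intensities the median change of all genes was 0.19, so a higher sum in the mutant pools shows no rise by itself. The part of these cells in the contractile genes was not tested.

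Striated muscle markers had changes mostly above 0, but 1 of 19 rose and none fell. The gene that rose was Tcap, a protein of the sarcomere (1.36, SE 0.29, adjusted p = 0.0474), and the median was 1.36. Tcap was above background on 3 of 3 mutant arrays and 1 of 3 control arrays, so that the size of its change rests partly on values at background. The striated list stood at 1.18, 0.91 and 0.06 in the mutant pools, against -1.44, -1.40 and 0.70 in the control pools, and its summed raw intensity was 28634 to 69956 in the mutant pools and 10926 to 40683 in the control pools. The muscle stem cell and myoblast genes Pax7 and Myod1, named after their values were seen, did not pass the filter on dim probes. Myog of the same list was above background on 2 of 3 arrays in each group. Its change was -0.14 (SE 0.30, limma adjusted p = 0.815). Control pool 3 was high and control pools 1 and 2 low in the striated list. Des, which striated muscle shares, read 9.85 in control pool 1 and 10.68 and 10.70 in control pools 2 and 3. Control pool 2 was thus low in the list and high in Des. In the mutant pools both Des (10.36, 9.71 and 9.26) and the striated list went down from pool 1 to pool 3. The part of striated muscle in Des was not tested. Of 4 heart muscle markers none passed limma's test (2 at an unadjusted p below 0.05, median 1.03). An unadjusted p below 0.05 was found for 2719 of all 10832 genes. Myh6 and Myl7, a heavy and a light chain of heart myosin, had changes of 2.05 (SE 0.83) and 1.39 (SE 0.52), where Myh6 was above background on 3 of 3 mutant arrays and 1 of 3 control arrays. The heart list stood at 0.21, 0.16 and 1.13 in the mutant pools, against 0.36, -1.31 and -0.55 in the control pools, and its summed raw intensity was 1651 to 2806 in the mutant pools and 809 to 1578 in the control pools. Of the 11 epithelial markers none passed limma's test (6 at an unadjusted p below 0.05, median 0.28). Their summed raw intensity, which is not normalized, was 100508 to 104917 in the mutant pools and 82152 to 88532 in the control pools. The nearest to the threshold were Foxj1, which directs the making of motile cilia, and Trp63 of basal cells, with changes of 0.64 and 0.47 (adjusted p = 0.0556 and 0.0648). Of 7 endothelial markers 1 fell, the endoglin gene Eng (-0.68, SE 0.13, adjusted p = 0.0336). Their summed raw intensity was 5897 to 7529 in the mutant pools and 6112 to 6511 in the control pools, and the median was -0.35. Of 8 chondrocyte markers 7 fell and none rose (median -2.65), among them Col2a1, Matn4 and Matn1 (-6.36, -2.95 and -2.85), of which Col2a1 was above background on 2 of 3 and Matn1 on 1 of 3 mutant arrays. Hapln1 also fell and was above background on 0 of 3 mutant arrays and 3 of 3 control arrays. The summed raw intensity of the chondrocyte list was 2829 to 2954 in the mutant pools and 10749 to 14527 in the control pools. The part of any of these cells in the contractile genes was not tested.

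**Figure D4:**
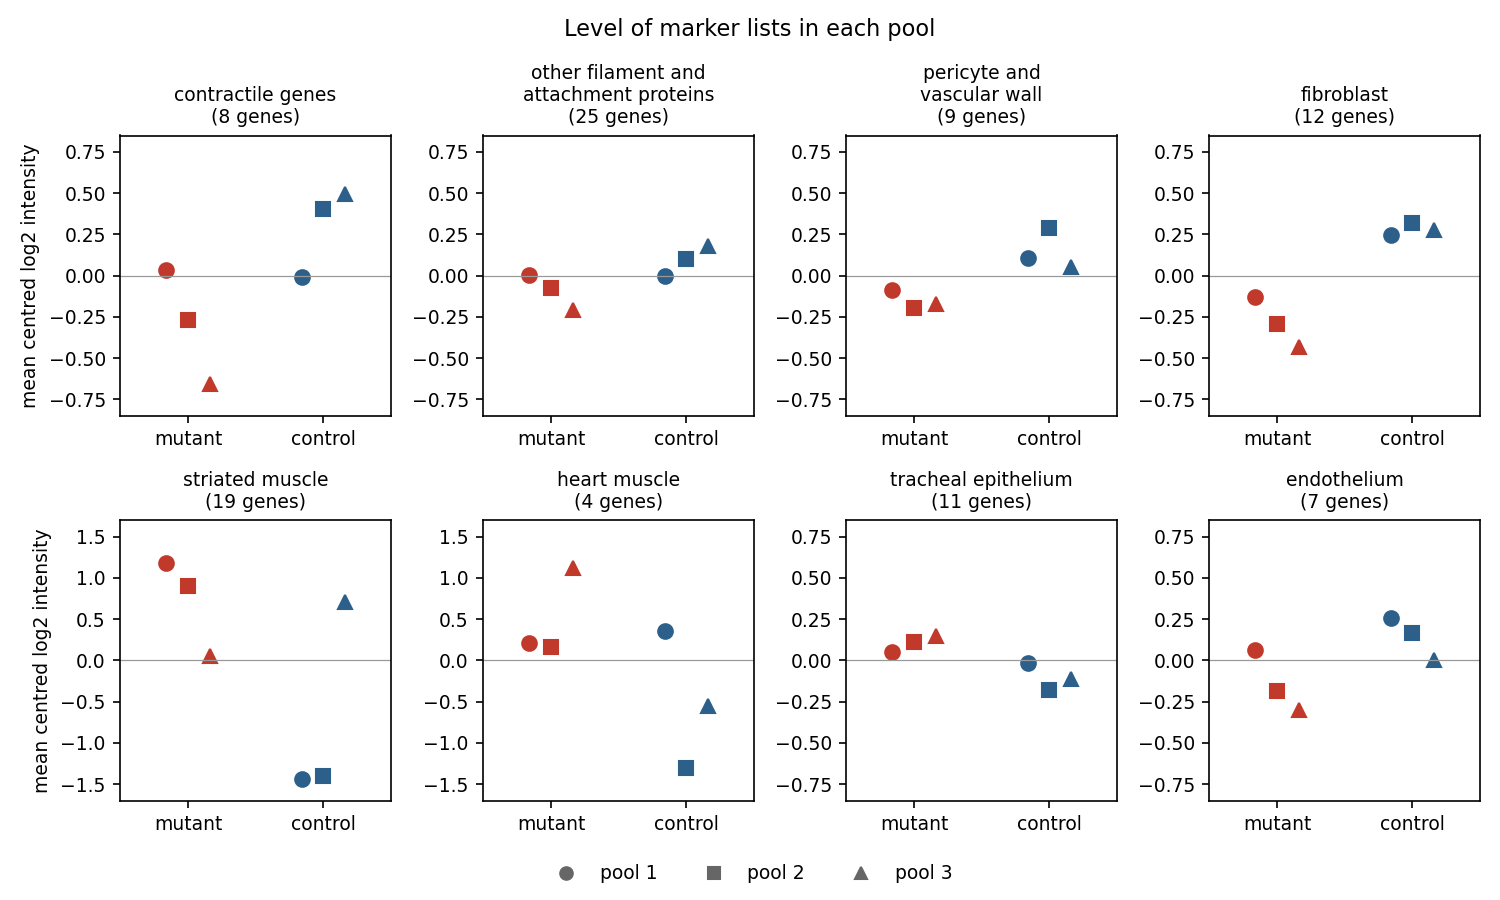
Mean centred log2 intensity of 8 gene lists in 3 mutant pools and 3 control pools, each gene centred on its mean over the 6 arrays. Symbols mark the pools, and the panels of striated and heart muscle span a wider range. The contractile genes of mutant pool 1 and control pool 1 stand level at 0.03 and -0.01, and striated muscle is high in control pool 3.

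In the authors' deposited table, 13 member probes are listed. It gives Actg2 a log2 change of -0.86 with an adjusted p of 0.0400 and the second Smtn probe -0.71 with 0.0426, while Tagln has -0.65 with 0.0516 and so misses the same threshold.

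Leaving out a pool changed the calls. Without mutant pool 2, mutant pool 3, control pool 2 or control pool 3, neither Actg2 nor Tagln passed (limma adjusted p of 0.0902 to 0.120 for Actg2 and 0.110 to 0.139 for Tagln), and without mutant pool 1 Tagln did not (adjusted p = 0.0810). The fits of 5 pools called 0 to 2 members and 84 to 561 of all genes tested. In these fits 3 to 6 members had an unadjusted p below 0.05 in limma, which was not counted over all genes. The median change of the members ran from -0.45 to -0.75 in them. With all pools, 4 members and 2719 of all 10832 genes had an unadjusted p below 0.05 in limma.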

How the data were processed

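Per the file headers, the deposited raw table gives, for every probe and array, a mean bead intensity with its standard error, a bead count and a p-value of detection against negative controls. The authors' deposited normalized values and fold changes are on the log2 scale, mutant minus control, and their score columns hold limma's moderated statistic and log odds. R 3.2.3 and limma 3.26.9 are named in the submitters' processing notes. Their series values lie within 0.0170 of those computed here.

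Starting from the intensities, neqc of limma 3.58.1 (R 4.3.3) inferred the background from detection p-values, added an offset of 16 and applied quantile normalization. Detection (p under 0.05) was required on 3 or more of the 6 arrays, which 14711 probes met. Symbols were updated through a RefSeq table of GRCm38.p6 (5218 of 18120), except that a probe became no member through a synonym. The brightest kept probe stood for a gene. Mutant minus control was tested with limma's lmFit and eBayes over all 10832 genes, two-sided, with Benjamini-Hochberg adjustment at 0.05, and also over all kept probes. A probe below background in a whole group is given as at least N-fold, its dim side set on each array to its own value or, if higher, the lowest detected signal there.

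The members and lists were chosen with earlier results of these data known. The named genes were all members, up to 4 passing genes per list by size of change or, where none passed, up to 2 by smallest p, and the 6 genes most alike the members, except where the text says otherwise. In simulated data for this comparison (10832 genes, 200 changed), 35.5% were recovered at a log2 change of 0.58 and 67.9% at 1, with 5.15% of calls false. The simulated spreads were drawn from all genes, with a median SD of 0.16, beside 0.37 for the members. These shares therefore do not give the recovery for the members. Pools were mixed at random, and same-numbered pools did not deviate together (correlations of -0.01, -0.09 and -0.10). Alternatives covered the correction, offset, scaling, source, filter, probe summary and variance model, a block for pool number, and fits without 1 pool.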

Additional observations from a re-analysis of the deposited data

How the results depend on the processing

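The median change of the members lay between -0.75 and -0.45 in the fits without 1 pool and between -0.64 and -0.50 under the 12 other alternatives that kept a correction or a normalization. On raw log2 intensities with neither, an alternative chosen after the data were seen, it was -0.28, while the median of all genes stood at 0.19, so that the members lay 0.48 below it. On that scale 3762 genes were called, 93.4% of them higher, with 20 related genes and 1 member, and Myh11 turned to 0.057. In fits without 1 pool the change of Myh11 ran from -0.41 to 0.15, with 0.15 found without mutant pool 3. The other 155 of 157 values of single members under the alternatives were below 0.

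With all pools 2 members, 599 genes and 10 related genes were called. Without 1 pool, 0 to 2 members, 84 to 561 genes and 1 to 5 related genes were called, with fewer samples in each fit. With pool number as a replicate block, 0 members, 122 genes and 0 related genes were called. The numbers do not pair the pools. With the block as without it, 4 members had an unadjusted p below 0.05 in limma, and 3 to 6 had one in the fits without 1 pool. Among all genes tested, 2719 of 10832 had such a p with all pools and no block, and the other fits were not counted over all genes. Array median scaling called 1 member, Actg2, and put 54.7% of all calls higher, against 39.1%. Without the filter on dim probes 1 member, 391 genes and 5 related genes were called, with more genes tested. Without background correction 947 genes were called, and 1082 with a trend and robust variance. The authors' limma values and the fit of single probes each called 6 related genes. Smtn passed under 6 of 21 alternatives (limma adjusted p of 0.00879 to 0.0419) and missed the threshold under the other 15. It missed in every fit without 1 pool (adjusted p of 0.0554 to 0.137). The mean of its probes, where it passed, takes in the dim probe kept through the control pools alone, which gives no support. For the dim probes of Lmod1 and Tagln the size of the change moved with the background correction, and without it was -0.29 and -0.41. The cause of these differences was not tested.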
